A study of Mus musculus with 2 samples.

Results

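CC chemokine ligands are small secreted proteins that direct the movement of leukocytes. The 8 genes described here, Ccl2, Ccl7, Ccl8, Ccl11, Ccl3, Ccl4, Ccl19 and Ccl21a, were chosen by name, and all 8 were among the 18920 genes listed for both libraries. Their values were read in single cells of the aortic root and ascending aorta of Fbn1C1041G/+ mice, a model of Marfan syndrome that carries a mutated copy of the fibrillin-1 gene in both groups. One group received GLPG0187, an inhibitor of integrin alpha-v, each day from 6 to 16 weeks of age, and the other received vehicle over the same weeks; tissue was taken at 16 weeks. Each group is 1 library made from aortas of males and females pooled together, and the sources used here do not say how many animals made up a pool. With 1 library per group nothing could be tested: the treatment cannot be told apart from the animals, the dissection, the digestion or the library, and every ratio below is a description of these libraries by size only.

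The ligands act through G protein-coupled receptors. Ccl2 and Ccl7 bind Ccr2 and draw monocytes out of the bone marrow and into tissue, and Ccl8 and Ccl11 belong to the same gene cluster, with Ccl11 (eotaxin) acting on the eosinophil receptor Ccr3. Ccl3 and Ccl4, the macrophage inflammatory proteins, attract monocytes and T cells, and Ccl3 binds Ccr1. Ccl19 and Ccl21a both bind Ccr7, through which dendritic cells and naive T cells find lymphatic vessels and lymph nodes, and Ccl21 is a product of lymphatic endothelium.

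The groups by role are also groups by position. In GRCm38, Ccl2, Ccl7, Ccl11, Ccl12 and Ccl8 lie in that order within 81.2 kb of chromosome 11, and Ccl3 and Ccl4 lie side by side within 16.8 kb of the same chromosome, 1531 kb further on. Ccl19 and Ccl21a share 19.5 kb of chromosome 4. RefSeq (GRCm38.p6) gave the 250 bases before the start site for 4 of the 8 genes, Ccl8, Ccl3, Ccl19 and Ccl21a. All that were available are shown, and Ccl2, Ccl7, Ccl11 and Ccl4 had no entry. Ccl8 and Ccl3 had the largest and the smallest difference between libraries among the 5 ligands of macrophage-like cells. Ccl19 and Ccl21a are close neighbours with separate cell sources. Each is written 5′ to 3′ on the strand of its gene: Ccl8 at chr11:82114935-82115184 (plus strand), Ccl3 at chr11:83649379-83649628 (minus), Ccl19 at chr4:42756366-42756615 (minus) and Ccl21a at chr4:42773992-42774241 (minus). Capitals mark matches to the motifs searched on both strands, which were the kappa-B consensus, the interferon-stimulated response element (ISRE, GAAA and GAAA with 2 bases between), AP-1 (TGANTCA) and the TATA box (TATAAA).
Ccl8: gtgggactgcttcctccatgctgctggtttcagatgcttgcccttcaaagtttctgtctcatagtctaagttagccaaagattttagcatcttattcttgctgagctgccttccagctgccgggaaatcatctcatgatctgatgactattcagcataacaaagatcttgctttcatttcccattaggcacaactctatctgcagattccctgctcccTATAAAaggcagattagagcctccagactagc
Ccl3: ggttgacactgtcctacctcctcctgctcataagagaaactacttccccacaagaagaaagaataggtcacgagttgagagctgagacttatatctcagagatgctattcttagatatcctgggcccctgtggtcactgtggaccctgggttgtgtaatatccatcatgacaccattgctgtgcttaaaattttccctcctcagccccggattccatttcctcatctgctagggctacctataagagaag
Ccl19: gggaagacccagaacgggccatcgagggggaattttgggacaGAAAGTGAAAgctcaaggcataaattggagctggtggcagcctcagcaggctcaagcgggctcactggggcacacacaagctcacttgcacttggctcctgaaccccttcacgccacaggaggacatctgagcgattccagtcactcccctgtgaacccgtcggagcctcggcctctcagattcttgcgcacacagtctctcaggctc
Ccl21a: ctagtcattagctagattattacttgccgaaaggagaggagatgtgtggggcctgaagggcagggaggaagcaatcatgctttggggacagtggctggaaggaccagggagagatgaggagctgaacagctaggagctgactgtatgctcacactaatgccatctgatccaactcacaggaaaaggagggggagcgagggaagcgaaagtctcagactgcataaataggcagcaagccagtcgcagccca
The Ccl8 stretch held a TATA box 32 bases before the start site, a motif found in 12.4% of the 32851 mouse stretches of this length in the same table. The Ccl19 stretch held an ISRE 208 bases before the RefSeq start site, found in 2.98% of all stretches. The gene positions used for the distances above place that start site differently. There Ccl19 runs from 42754525 to 42756577 on the minus strand, so most of the printed stretch, with the ISRE, lies inside the gene. The Ccl3 and Ccl21a stretches held none of the 4, of which the kappa-B consensus stood in 3.90% and AP-1 in 6.75% of all stretches. None of the printed matches overlapped another. A match is of letters only and shows no binding.

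The libraries held 4397 cells (GLPG0187) and 2961 cells (vehicle), of which 4349 and 2945 were kept after doublets were removed. The deposited values are whole numbers on a depth-corrected scale with a median total of 14942 and 14806 per cell, so they are not molecule counts, and the raw depth is unknown. Cells were clustered without any chemokine gene. Macrophage-like cells (344 and 182 cells, 7.91% and 6.18%) held all 8 macrophage markers above the naming limit, and fibroblast-like cells (1062 and 876), smooth muscle cell (SMC)-like cells (1296 and 543), root mesenchymal-like cells (907 and 713), chondrocyte or valve-like cells (176 and 192) and endothelial-like cells (160 and 104) also met it. Cluster 3 (367 and 287 cells, led by Tnnt2, Timp4 and Nrgn) passed for SMC but stayed unnamed because the pericyte marker Notch3 stood among its leading genes. In the text below a level is a mean deposited value per cell, the GLPG0187 value is given first unless a sentence says otherwise, and intervals are exact 95% binomial intervals that cover counting error only. Ignoring suffixes, 5 cell barcodes occurred in both libraries.

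The 8 ligands had 3 kinds of source. Macrophage-like cells held nearly all of the summed Ccl3 (98.0% with GLPG0187, 98.9% with vehicle), Ccl4 (98.1% and 98.7%) and Ccl8 (96.6% and 91.6%), and most of Ccl7 (86.0% and 85.7%) and Ccl2 (86.2% and 67.0%). The vehicle Ccl2 sum of 6303 included single cells at 401 (endothelial-like), 378 (fibroblast-like), 290 (root mesenchymal-like) and 137 (cluster 3). Its share outside macrophage-like cells thus rests in large part on few cells. Ccl11 came from fibroblast-like cells, at 96.4% and 71.7%, with a further 26.7% of the vehicle sum in cluster 3. In that cluster 7 vehicle cells held Ccl11 at all, and 59.4% of its value was in 1 cell at 41.

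Ccl19 and Ccl21a, which share a receptor, had no common source. Ccl19 was divided between fibroblast-like cells (44.5% and 38.1%), root mesenchymal-like cells (41.4% and 53.2%) and chondrocyte or valve-like cells (9.09% and 5.83%). Ccl21a lay almost wholly in endothelial-like cells (98.8% and 99.4%).

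**Figure D1:**
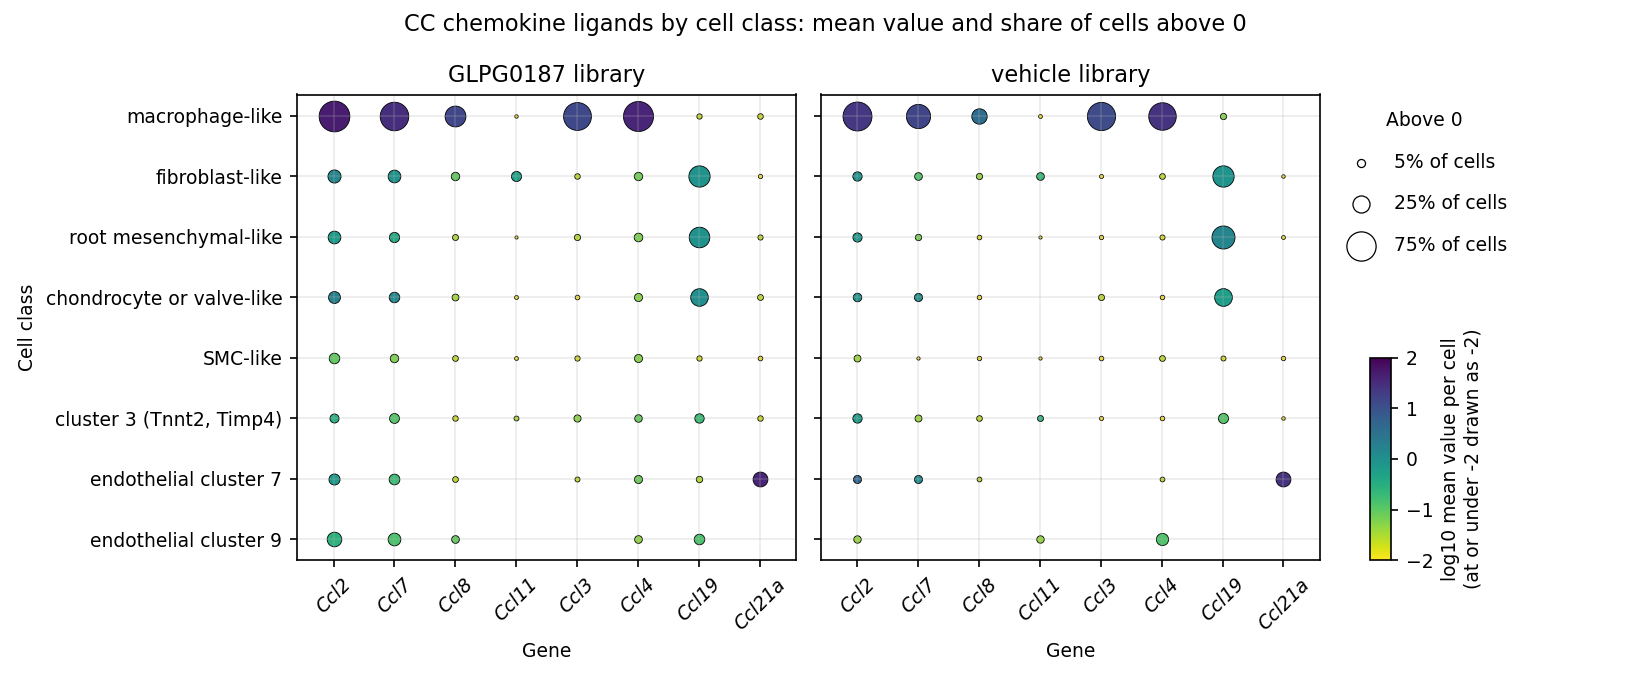
Each dot is a gene (x axis) in a cell class (y axis) of 1 library (panel). Dot area grows with the share of cells above 0 and colour gives the log10 mean deposited value per cell; no dot is drawn at a mean of 0. Macrophage-like cells carry Ccl2, Ccl7, Ccl8, Ccl3 and Ccl4, stromal classes carry Ccl19, and endothelial cluster 7 carries Ccl21a.

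In macrophage-like cells the ligands of Ccr2 were higher in the GLPG0187 library, and Ccl8 stood furthest apart. Ccl2, the main monocyte attractant, averaged 50.0 per cell there and 23.2 in the vehicle library, a ratio of 2.11 (log2 1.08). It was above 0 in 82.8% (78.4 to 86.7) and 73.6% (66.6 to 79.9) of cells, and the median cell held 14 and 5. The share of cells thus differed less than the level: among cells above 0 the mean was 60.3 and 31.5.

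Ccl7 averaged 29.8 and 15.1 (log2 0.95). It was above 0 in 71.5% (66.4 to 76.2) and 51.1% (43.6 to 58.6) of cells, with medians of 7 and 1. Ccl8 averaged 14.4 and 3.79, a ratio of 3.73 (log2 1.90), from 37.8% (32.6 to 43.1) and 20.3% (14.7 to 26.9) of cells. Most macrophage-like cells of either library held no Ccl8, and in the vehicle library 32.2% of its sum came from 1 cell at 222.

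Ccl3 did not share the difference. Its mean was 13.5 and 12.4 (log2 0.10), and it was above 0 in 68.0% (62.8 to 72.9) and 69.8% (62.5 to 76.4) of cells. Its neighbour Ccl4 averaged 38.3 and 25.8 (log2 0.54, 1.45-fold), with 79.1% (74.4 to 83.2) and 66.5% (59.1 to 73.3) of cells above 0, and fell short of the 1.5-fold size used for counts. Ccl11, Ccl19 and Ccl21a had means of at most 0.0549 in these cells.

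Of the 8 genes, 5 had a summed value of at least 100 over both libraries in macrophage-like cells, the minimum for a gene to count as measured. Of these, 3 (Ccl2, Ccl7 and Ccl8) were at least 1.5-fold higher in the GLPG0187 library, beside 6.32% of the 6458 genes measured in the class, and 0 were at least 1.5-fold lower, beside 3.14%. The median log2 ratio was 0.95 over the 5 ligands and -0.01 over all measured genes.

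**Figure D2:**
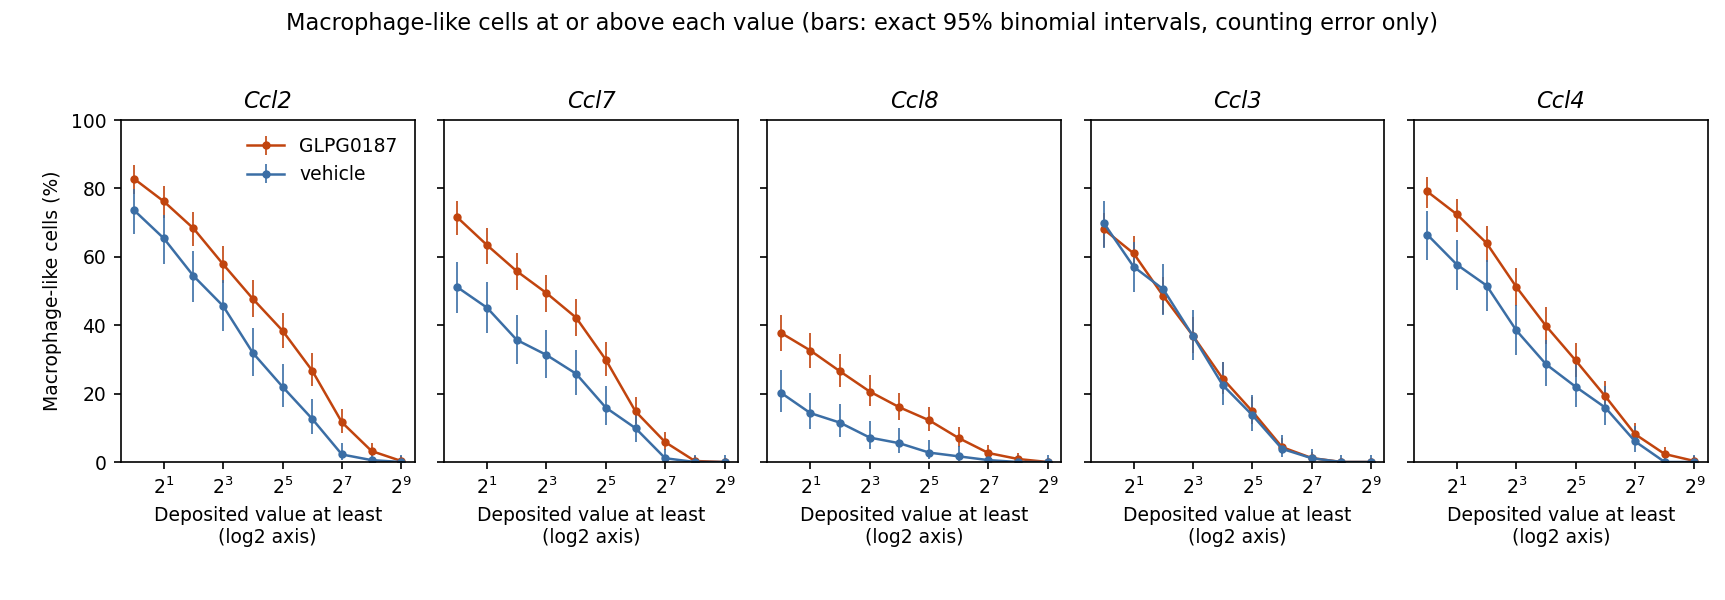
Share of macrophage-like cells (y axis, %) at or above each deposited value (x axis, log2 scale) for 5 ligands, with GLPG0187 in orange and vehicle in blue and bars for exact 95% binomial intervals. The Ccl2, Ccl7 and Ccl8 curves of the GLPG0187 library lie above those of the vehicle library up to a value of 256, where few cells remain and the intervals overlap. The Ccl3 curves overlap.

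Single cells often held several of the ligands. All 5 of Ccl2, Ccl7, Ccl8, Ccl3 and Ccl4 were above 0 in 79 of 344 macrophage-like cells of the GLPG0187 library (23.0%, 18.6 to 27.8) and in 19 of 182 of the vehicle library (10.4%, 6.40 to 15.8). None of the 5 was detected in 6.98% and 5.49% of cells. Ccl7 was found in 82.1% of GLPG0187 cells with Ccl2 and in 20.3% of those without it; in the vehicle library these shares were 65.7% and 10.4%. Ccl3 and Ccl4 formed the other close pair: Ccl4 was present in 92.7% of cells with Ccl3 and 50.0% of cells without it in the GLPG0187 library, and in 81.9% and 30.9% in the vehicle library. Ccl8 showed no such tie to Ccl3, which was found in 71.5% of GLPG0187 cells with Ccl8 and 65.9% of those without. Across cells, Pearson's r of log2 values was 0.78 and 0.72 for Ccl2 with Ccl7, 0.71 and 0.75 for Ccl3 with Ccl4, and 0.00 and 0.01 for Ccl8 with Ccl3. These describe 344 and 182 cells that share a library and a class.

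The macrophage-like cells of the libraries also differed in makeup, though not clearly in resident markers. Lyve1 or Folr2, markers of resident macrophages, was above 0 in 41.0% (35.7 to 46.4) of GLPG0187 and 48.4% (40.9 to 55.9) of vehicle cells. Those intervals overlap. Ccr2, the receptor of Ccl2 and Ccl7 and a marker of recent monocyte origin, was above 0 in 32.0% (27.1 to 37.2) and 19.2% (13.8 to 25.7). Of the 6 monocyte markers 5 were at least 1.5-fold higher in the GLPG0187 library, with a summed level of 13.9 and 6.18; Plac8 stood at 4.29 and 0.621, Ms4a4c at 3.64 and 1.03, and Ly6c2, the one not higher, at 2.13 and 2.94. Of the 8 macrophage markers 1 was higher (Fcgr1, 4.14 and 2.04) and 0 lower, and of the 7 resident macrophage markers 0 were higher and 0 lower. Of the 7 SMC markers 6 were higher in these cells (summed level 21.2 and 10.1, Acta2 9.83 and 4.97, Tagln 7.34 and 2.97), and of 4 measured cycling genes 3 (summed level of the list 3.16 and 1.94). Over all genes measured in the class, 6.32% were at least 1.5-fold higher and 3.14% lower. The part of these marker genes in the ligand values was not tested, but the ligands can be read within subsets.

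Both Lyve1 or Folr2 cells and the cells without them had higher Ccl2, Ccl7 and Ccl8 in the GLPG0187 library. In cells with Lyve1 or Folr2, the larger source, Ccl2 averaged 90.9 and 38.9, Ccl7 57.4 and 25.9, and Ccl8 28.5 and 7.17. In cells with neither, Ccl2 averaged 21.6 and 8.50, Ccl7 10.7 and 4.97, and Ccl8 4.65 and 0.628.

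Ccl3 and Ccl4 differed by subset. With Lyve1 or Folr2, Ccl3 averaged 18.3 and 9.92 (log2 0.85) and Ccl4 44.4 and 20.7 (log2 1.07); without them, Ccl3 averaged 10.3 and 14.7 (log2 -0.54) and Ccl4 34.0 and 30.7 (log2 0.13). In cells with Ccr2 above 0 the log2 ratio was 1.06 for Ccl2, 0.59 for Ccl7, 2.98 for Ccl8, -0.56 for Ccl3 and -0.01 for Ccl4. Cells whose transcripts mark them as female (Xist and no Y-linked gene, 45 and 37 cells) or male (a Y-linked gene and no Xist, 241 and 119 cells) come from different animals of a pool. Ccl2 averaged 64.2 and 20.3 in the first and 46.8 and 18.7 in the second, Ccl7 36.6 and 14.8 against 28.3 and 15.3, and Ccl8 30.6 and 2.92 against 10.8 and 3.86.

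**Figure D3:**
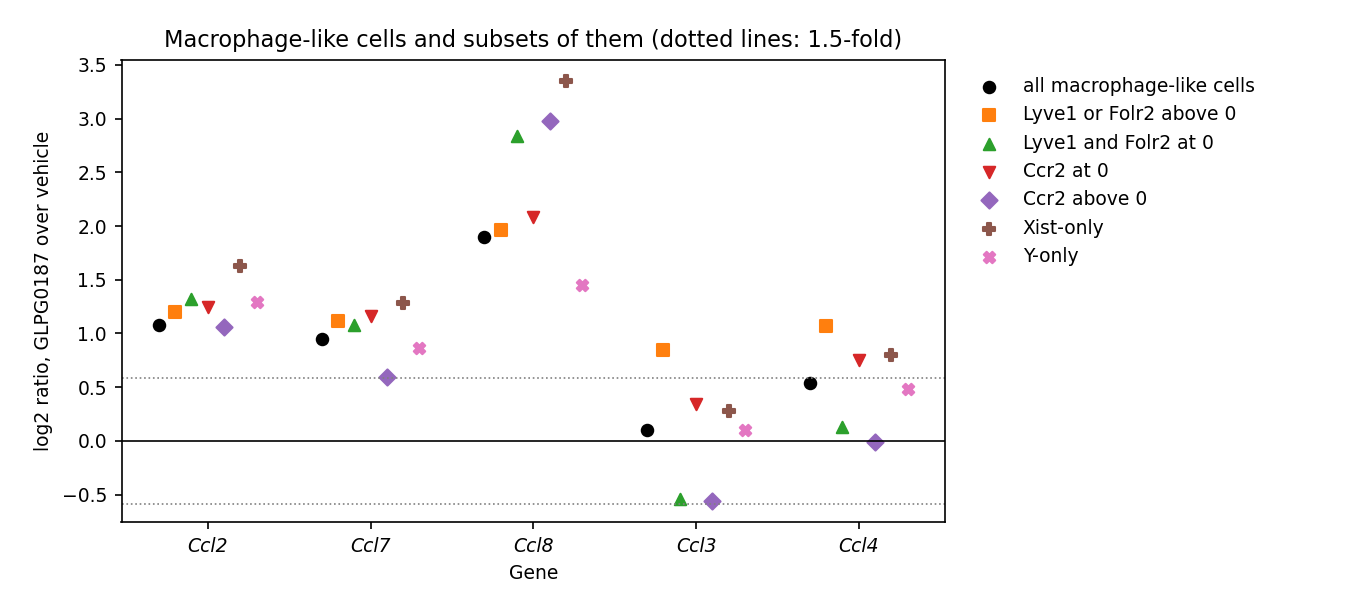
log2 ratio of GLPG0187 over vehicle (y axis) for 5 ligands (x axis) in all macrophage-like cells and in 6 subsets of them; dotted lines mark 1.5-fold. Ccl2, Ccl7 and Ccl8 lie at or above the upper line in all 6 subsets, while Ccl3 lies between -0.56 and 0.85.

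Other genes of the system were read in the same cells. Among the CC receptors, Ccr2 averaged 2.37 and 1.16 in macrophage-like cells. Ccr1 averaged 2.09 and 1.13 (log2 0.86) and was above 0 in 45.9% and 41.2% of cells. The atypical receptor Ccrl2 was at 4.06 and 5.30. Of 7 other CC ligands measured 3 were higher and 1 lower (median log2 0.24), beside 6.32% and 3.14% of all genes measured in the class. Ccl12, a Ccr2 ligand encoded between Ccl11 and Ccl8, averaged 19.6 and 6.36 (log2 1.60), Ccl6 14.4 and 9.23, Ccl9 8.39 and 7.68, and Ccl5 3.24 and 1.79.

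Lists of inflammatory and early response genes had medians below 0 in the same cells. Their counts stand beside 6.32% of all measured genes that were at least 1.5-fold higher and 3.14% that were lower. Counts of 0 or 1 in lists of this length are near those shares. Of 16 measured genes of NF-kappa-B and its cytokine inputs 0 were higher and 1 lower (median log2 -0.23): Il1b averaged 28.8 and 35.2, Nfkbia 14.0 and 19.0, Cebpb 14.8 and 18.0, and Tnf 7.12 and 8.27. Of 17 immediate early genes, which respond quickly to many signals, 0 were higher and 1 lower (median log2 -0.14), with Junb at 18.2 and 19.7, Jund at 15.8 and 17.6, Zfp36 at 9.46 and 9.63, and Ier3 at 8.80 and 9.73. Of 8 CXC and related ligands 2 were higher and 2 lower; Cxcl2 averaged 117 and 146, Pf4 27.3 and 34.0, Cxcl1 10.5 and 10.5, and the interferon-inducible Cxcl10 8.92 and 3.42.

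Fibroblast-like cells held most Ccl11, and Ccl2 and Ccl7 at far lower levels than macrophage-like cells. Of the 5 ligands measured there 4 (Ccl2, Ccl7, Ccl11 and the scarce Ccl8) were at least 1.5-fold higher in the GLPG0187 library. This stands beside 2.53% of the 10238 genes measured, and 0 were lower, beside 1.18%. The median log2 ratio was 1.13 over the 5 and -0.03 over all measured genes.

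Ccl7 stood furthest apart, at 0.876 and 0.132 (log2 2.71), and was above 0 in 144 of 1062 cells (13.6%, 11.6 to 15.8) and 40 of 876 (4.57%, 3.28 to 6.17). Ccl2 averaged 1.41 and 0.849 (log2 0.72), with 14.5% (12.4 to 16.8) and 6.96% (5.37 to 8.86) of cells above 0. In the vehicle library 1 cell at 378 held 50.8% of the Ccl2 sum of the class, and without the highest cell of each library the means were 1.28 and 0.418 (log2 1.60). Ccl11, the eosinophil attractant, averaged 0.531 and 0.211 (log2 1.32), with 8.29% (6.70 to 10.1) and 4.57% (3.28 to 6.17) of cells above 0. Ccl8 was scarce, at 0.0942 and 0.0422, and Ccl19 had the same level in both libraries, 0.866 and 0.865, in 39.4% and 39.5% of cells. In SMC-like cells, read below as background, Ccl2 was above 0 in 9.10% and 3.50% of cells. Ccl7 was above 0 there in 5.56% and 0.184%, and Ccl11 in 0.540% and 0.184%. No SMC-like cell held Ccl2, Ccl7 or Ccl11 above a value of 2. The part of background in the fibroblast-like shares above 0 was not tested.

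The stromal Ccl2 and Ccl7 came from few cells. Cells at a value of 5 or more were 50 of 1062 (4.71%, 3.51 to 6.16) and 14 of 876 (1.60%, 0.876 to 2.67) for Ccl2, and 43 (4.05%, 2.95 to 5.42) and 5 (0.571%, 0.186 to 1.33) for Ccl7. Among the cells with Ccl2 at 5 or more, the macrophage marker C1qa was above 0 in 3 of 50 and 0 of 14, with a mean of 0.0600 and 0. In the GLPG0187 library C1qb averaged 0.220 in them and 0.0870 in cells with Ccl2 at 0, Cd68 0.140 and 0.0485, and Ccl4 0.160 and 0.0639; their part in the Ccl2 values was not tested. In GLPG0187 these cells held more Il6, a cytokine of activated fibroblasts, than cells with Ccl2 at 0 (11.8 and 3.26), and 29 of the 50 held Ccl7. In the vehicle library Il6 averaged 6.93 and 1.39 in the same 2 sets, and 1 of the 14 held Ccl7. Ccl2 and Ccl7 met in the same fibroblast-like cell in 48 of 1062 cells of the GLPG0187 and 2 of 876 of the vehicle library. Both ligands were also found in fewer vehicle cells. Ccl7 was present in 31.2% of GLPG0187 cells with Ccl2 and in 10.6% of those without it. In the vehicle library these shares were 3.28% and 4.66%.

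The 2 clusters of fibroblast-like cells differed in Ccl11. Cluster 2 (led by Clec3b, Scara5 and Smoc2) held most of it, at 0.651 and 0.298, in 11.2% (8.97 to 13.8) and 6.17% (4.38 to 8.40) of cells. Cluster 4 (led by Il6, Adamts4 and Ptgs2) held 0.313 and 0.0217, in 2.92% (1.47 to 5.16) and 1.09% (0.225 to 3.14) of cells, and 1 GLPG0187 cell at 86 held 72.9% of that sum. Ccl7 was alike in the 2 clusters within a library, at 0.888 and 0.122 in cluster 2 and 0.854 and 0.156 in cluster 4. The higher Ccl11 was seen in male-marked fibroblast-like cells (0.721 and 0.165) but not in female-marked ones (0.246 and 0.266), a difference that was not tested, whereas Ccl7 was higher in both (1.21 and 0.174, and 0.380 and 0.101).

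**Figure D4:**
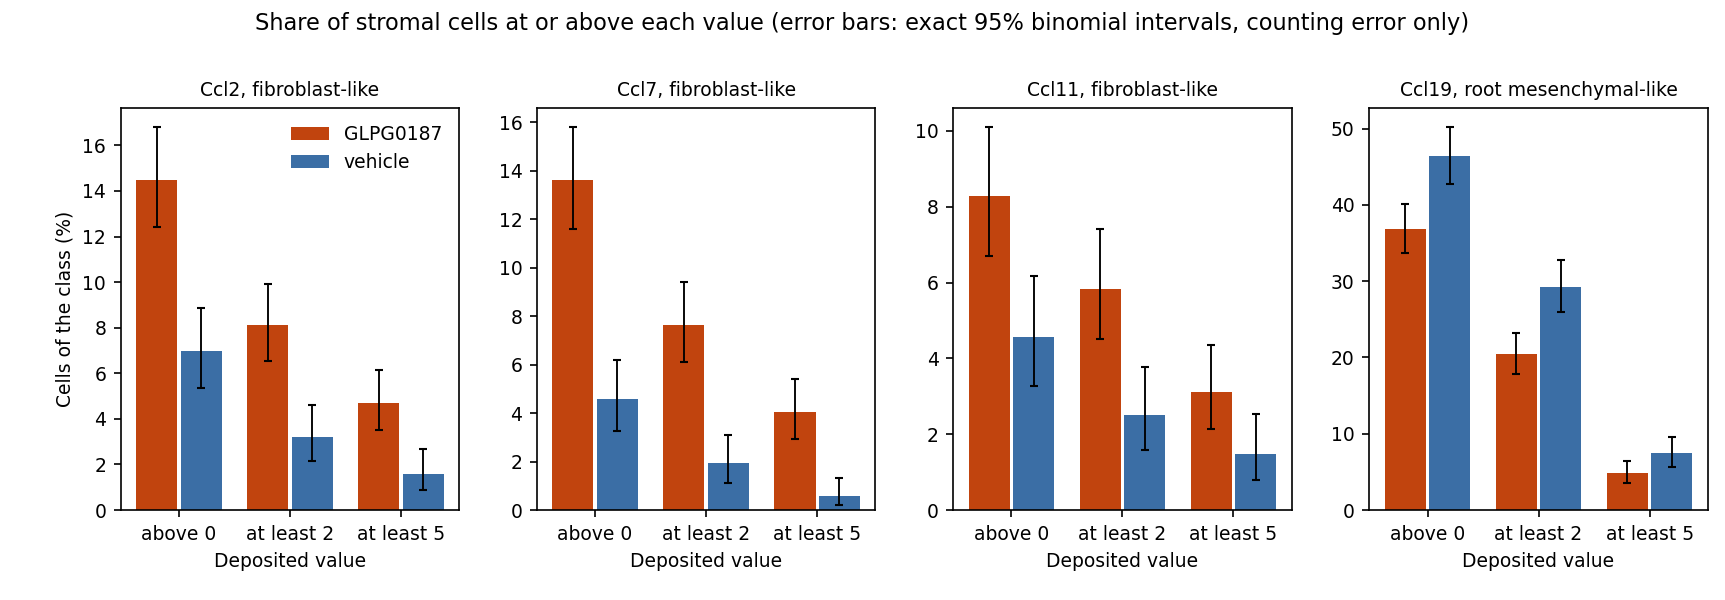
Share of cells (y axis, %) above 0, at 2 or more and at 5 or more (x axis) for Ccl2, Ccl7 and Ccl11 in fibroblast-like cells and Ccl19 in root mesenchymal-like cells, GLPG0187 in orange and vehicle in blue, with exact 95% binomial intervals as error bars. The fibroblast ligands are higher in the GLPG0187 library at all 3 values, and Ccl19 is lower. Each panel has its own y axis. The part of background in the shares above 0 was not tested.

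Other genes of fibroblast-like cells were also higher in the GLPG0187 library. The counts below stand beside 2.53% of all genes measured in the class that were at least 1.5-fold higher and 1.18% that were lower. Of 8 CXC ligands measured 4 were higher and 0 lower (median log2 0.71): Cxcl12 averaged 12.2 and 12.2, Cxcl1 4.68 and 1.88, Cxcl16 1.47 and 1.37, and Cxcl2 0.918 and 0.131. Of 18 immediate early genes 5 were higher and 0 lower (median log2 0.40), with Fos at 35.0 and 28.0, Junb at 27.6 and 19.5, Egr1 at 21.6 and 18.4, and Jun, Jund and Nr4a1 each at 13.4 against 10.8, 11.9 and 9.39. Of 14 NF-kappa-B genes 3 were higher (median log2 0.12), with Cebpd at 13.6 and 15.5, Nfkbia at 8.66 and 6.28, Cebpb at 8.40 and 8.41, and Nfkb1 at 2.41 and 1.57. The part of the immediate early genes in the ligand values was not tested. The scavenger Ackr3 was present in 56.1% and 54.2% of fibroblast-like cells.

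Low values elsewhere need a measure of background. SMC-like cells, which are not known as a source of Ccl3 and Ccl4, held Ccl4 in 5.09% and 2.21% of cells and the macrophage genes C1qa in 7.64% and 4.60% and Lyz2 in 16.6% and 12.0%, almost always at a value of 1. Ccl2 was above 0 there in 9.10% (7.59 to 10.8) and 3.50% (2.12 to 5.41) of cells, at a highest value of 2, with a mean of 0.0949 and 0.0368. That mean was 0.190% and 0.159% of the mean in macrophage-like cells, beside 0.139% and 0.0855% for Ccl4 and 0.129% and 0.158% for C1qa, for which 1 vehicle cell stood at 33. Shares of this size were read as background and not as expression, but this reading was not tested.

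By size, Ccl2 was the 1 ligand measured in SMC-like cells. Its low level was higher in the GLPG0187 library (log2 1.31), beside 0.543% of 10133 genes that were higher and 1.53% that were lower. Ccl7 was above 0 in 72 SMC-like cells with GLPG0187 (5.56%) and in 1 with vehicle (0.184%), with no cell above 2. Its mean there was 0.194% and 0.0122% of that in macrophage-like cells, so the libraries differed more in it than in Ccl2, Ccl4 or C1qa. The source of these Ccl7 values was not tested. In fibroblast-like cells the mean of Ccl2 was 2.81% and 3.66% of that in macrophage-like cells, and its highest values were 138 and 378. Ccl3 and Ccl4 there stood at 0.0552% to 0.185% of it.

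Ccl19 was the one ligand lower in the GLPG0187 library in a main source. In root mesenchymal-like cells, led by Prss35, Npy and the heart valve factor Tbx20, it averaged 0.944 and 1.49 (log2 -0.64). It was above 0 in 36.8% (33.7 to 40.1) and 46.4% (42.7 to 50.2) of cells and at 5 or more in 4.85% (3.55 to 6.46) and 7.43% (5.62 to 9.61). It was lower in female-marked (0.824 and 1.30) and in male-marked cells (1.02 and 1.56). No single cell held over 4.25% of the sum. In chondrocyte or valve-like cells Ccl19 averaged 1.07 and 0.604, while the share above 0 was 26.7% (20.3 to 33.9) and 27.1% (20.9 to 34.0), and 1 GLPG0187 cell at 54 held 28.7% of the sum.

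Ccl7 was higher in root mesenchymal-like cells too, at 0.390 and 0.0645 (log2 2.58), in 8.60% (6.86 to 10.6) and 2.81% (1.72 to 4.30) of cells. Ccl2 averaged 0.649 and 0.687 (log2 -0.07) although 13.5% (11.3 to 15.8) and 6.73% (5.01 to 8.83) of cells were above 0. In SMC-like cells, read as background, these shares were 5.56% and 0.184% for Ccl7 and 9.10% and 3.50% for Ccl2. Root mesenchymal-like cells with Ccl2 at 5 or more were 2.09% (1.27 to 3.25) and 1.82% (0.974 to 3.10). A single vehicle cell at 290 held 59.2% of the Ccl2 sum, and without the highest cell of each library the means were 0.554 and 0.281 (log2 0.99). Of the 3 ligands measured in this class 1 was higher, beside 1.62% of 10320 genes, and 1 was lower, beside 1.56%.

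Of the 3 ligands measured in chondrocyte or valve-like cells 2 were higher (Ccl2 and Ccl19), beside 2.48% of 6132 genes, and 0 lower, beside 1.47%. Ccl2 averaged 1.76 and 0.844 (log2 1.06). Ccl7 averaged 1.32 and 0.979 (log2 0.44, 1.36-fold) and fell short of the size used for counts. The few cells with much of one held the other: Ccl7 was above 0 in all 5 GLPG0187 cells and all 4 vehicle cells with Ccl2 at 5 or more, with a mean of 42.4 and 37.8. The highest cell held 56.0% and 46.9% of the Ccl2 sum, at 173 and 76. At clustering resolution 1.0, where a separate cluster of 15 and 28 cells led by Hp, Saa3 and Spp1 appeared, the Ccl2 sum of the class over both libraries was 28 rather than 471 and the Ccl19 sum 110 rather than 304.

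Ccl21a belonged to a subset of 1 endothelial cluster. Cluster 7 (138 and 80 cells, led by Nts, Mmrn1, Cldn5 and Flt4) met the naming rule for both vascular and lymphatic endothelium, and Ccl21a averaged 38.2 and 26.8 in it. It was above 0 in 26 of 138 (18.8%, 12.7 to 26.4) and 15 of 80 cells (18.8%, 10.9 to 29.0). Cluster 9 (22 and 24 cells, led by the capillary genes Gpihbp1 and Fabp4) had 0 cells with Ccl21a in either library, which allows a share of cells above 0 of up to 13.6% and 12.5% by the 3-cell limit.

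The Ccl21a cells of cluster 7 were largely those with Lyve1, a receptor of lymphatic capillaries. With Lyve1 above 0, Ccl21a was present in 23 of 43 (53.5%, 37.7 to 68.8) and 13 of 24 cells (54.2%, 32.8 to 74.4), at a mean of 117 and 79.4. With Lyve1 at 0 it was present in 3 of 95 and 2 of 56 cells, at a mean of 2.38 and 4.27. Prox1, the master regulator of lymphatic identity, divided them less sharply: 21 of 88 and 15 of 53 cells with Prox1 held Ccl21a, and 5 of 50 and 0 of 27 cells without it. The highest values were 546 and 614, and the highest vehicle cell held 28.6% of the sum, so the ratio of the class (log2 0.66) rests on few cells. Reads of Ccl21a may be shared with near-identical copies such as Ccl21b on the same chromosome, so its level is uncertain.

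In endothelial-like cells as a whole 3 ligands were measured. The 1 higher was Ccl21a, beside 5.02% of 4863 genes. Within cluster 7 alone, Ccl21a was at log2 0.50 (1.41-fold), under the size used for counts. The 2 lower were Ccl2 and Ccl7, beside 3.80%. Both lower values came from 1 vehicle cell of cluster 7 that held Ccl2 at 401 and Ccl7 at 92, with Pecam1 at 18, Prox1 at 5, Dcn, a fibroblast gene, at 28, and C1qa, C1qb and Cd68 at 0. Whether it is a doublet was not tested. Without the highest cell of each library the log2 ratios turned from -2.73 to 1.82 for Ccl2 and from -2.37 to 1.94 for Ccl7. By share, Ccl2 was above 0 in 11.2% (6.81 to 17.2) and 4.81% (1.58 to 10.9) of endothelial-like cells. Those shares stand beside 9.10% and 3.50% in SMC-like cells, which were read as background. Endothelial-like cells with Ccl2 at 5 or more were 3.12% (1.02 to 7.14) and 1.92% (0.234 to 6.77). Scavengers that remove chemokines were also read in cluster 7. Ackr3, which many fibroblast-like cells held too, was present in 76.8% and 73.8% of its cells, and Ackr2 in 34.1% and 22.5%. Ackr4, which takes up Ccl19 and Ccl21, was present in 14.5% and 21.2%.

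The receptor of Ccl19 and Ccl21a was found in a different small cluster. Ccr7 averaged 8.86 and 18.4 in cluster 10 (14 and 7 cells, led by Ccr7, Cytip, Wdfy4 and Xcr1) and was above 0 in 3 of 14 (21.4%) and 3 of 7 cells (42.9%).

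Over all cells of a library, where the number of source cells and the level per cell both enter, 6 of the 8 ligands were at least 1.5-fold higher in the GLPG0187 library, beside 3.29% of 13271 genes, and 0 were lower, beside 2.12%. Ccl8 was at 1.18 and 0.256 (log2 2.20), Ccl7 at 2.74 and 1.09 (log2 1.33), Ccl2 at 4.58 and 2.14 (log2 1.09), Ccl4 at 3.09 and 1.62 (log2 0.93), Ccl21a at 1.23 and 0.732 (log2 0.74) and Ccl11 at 0.135 and 0.0876 (log2 0.61). Ccl3 was at 1.09 and 0.775 (log2 0.49) and Ccl19 at 0.476 and 0.675 (log2 -0.51). The values of Ccl2, Ccl7, Ccl8, Ccl3 and Ccl4 over all cells move with the share of macrophage-like cells, which digestion and sorting can also set.

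Over the means of 11 clusters in 2 libraries, 22 points that share libraries and scaling, the genes most like each ligand were sought among 13271. Ccl2 followed Il17ra most closely (Pearson's r = 0.89), then Sirpa and Ang (both 0.87), and Ccl7 followed Pla2g7 (0.86), Folr2 and Ccl8 (both 0.81). Ccl8 was closest to Fcgr4 (0.94), Pilrb2 and Clec4e (both 0.93), Ccl3 to Dok2 and Pilra (both 0.97) and Hmmr (0.96), and Ccl4 to Clec4d (0.94), Cd300lb and Spic (both 0.93). Outside macrophages, Ccl11 was closest to Ebf2 (0.90), Lgi2 (0.82) and Grm3 (0.80), Ccl19 to Cpxm2 and Gm10600 (both 0.94) and Glt8d2 (0.93), and Ccl21a to Klk10, Gm21541 and Duoxa2 (each 0.98). Gm21541, also on chromosome 4, may share reads with Ccl21a.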

How the data were processed

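Single-cell libraries (10x Genomics 3' version 3, per the labels' protocols) of 1 GLPG0187 pool and 1 vehicle pool were grouped by their treatment label. The deposited values are a depth-corrected score in whole numbers, not UMI counts; Cell Ranger, Seurat and the build mm10 are named, without roles, per the submitters' processing notes, and the sources used here do not say how the authors corrected depth. Totals per cell lay between 12078 and 16719, and because raw depth is unknown no count model was used.

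The cell filter (at least 200 genes, at most 20% mitochondrial values) removed 0 cells, and Scrublet in scanpy 1.11.5 marked 48 (1.09%) and 16 (0.540%) cells as doublets, which were removed; some may remain in values of even totals. After scaling to 10000 per cell and log transformation, clusters came from 2000 variable genes (no mitochondrial, ribosomal, Xist, Tsix, Y-linked or chemokine genes), scaled over both libraries, 30 principal components, 20 neighbours and Leiden clustering (igraph 0.11.9) at resolution 0.5. A cluster took the name of a class if 3 or more, and 75%, of the class's markers were found in 25% of cells and exceeded 3 times the median cluster, unless markers of another class were more frequent among its 10 leading genes.

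Log2 ratios are of class sums (plus 1) over class totals, GLPG0187 over vehicle, for genes summing to at least 100. Genes at least 1.5-fold apart were counted by size. Shares carry Clopper-Pearson 95% intervals; where 0 cells were seen, up to 3 cells of the total are allowed. The ratio step was run on simulated Poisson sums with no added spread between cells or libraries. That run checks the code and not the ratios reported here. Genes named are the 8 ligands, up to 6 receptors or scavengers by share of cells above 0, the 4 genes of each list highest in the class described, up to 3 markers by level and the 3 genes most like each ligand (log2 of mean plus 0.01); Il6, Pecam1, Prox1, Dcn, Lyz2, Fcgr1, Ackr2, Ackr4 and the subsets by Lyve1, Folr2, Ccr2 and Prox1 were chosen after their values were seen. Values of 1 receptor are not reported here. The ligands and lists were chosen with earlier results of these data known. Computing used scikit-learn 1.9.0, pandas 2.3.3, numpy 2.4.6, scipy 1.17.1 and matplotlib 3.10.9 in Python 3.11.15.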

Additional observations from a re-analysis of the deposited data

Results flagged for a closer look

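The log2 ratio of GLPG0187 over vehicle had opposite signs in different classes for 3 ligands, and none of these differences between classes was tested. Ccl2 was at 1.08 in macrophage-like, 0.72 in fibroblast-like, 1.31 in SMC-like and 1.06 in chondrocyte or valve-like cells, but at -2.73 in endothelial-like cells and -1.14 in cluster 3. The SMC-like values are of at most 2 per cell and were read as background. Ccl7 was at 0.95 in macrophage-like, 2.71 in fibroblast-like and 2.58 in root mesenchymal-like cells, but at -2.37 in endothelial-like cells. The lower endothelial values of both ligands came from the same vehicle cell, and in cluster 3 a single cell held 73.8% and 73.7% of the Ccl2 sum, at 79 and 137. Ccl19 was at -0.64 in root mesenchymal-like cells, but at 0.83 in chondrocyte or valve-like cells and 0.59 in cluster 3.

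The ratio was also at least 1.5-fold in opposite directions between cells marked by Xist alone and cells marked by Y-linked genes alone in 2 cases, again untested. Ccl19 in chondrocyte or valve-like cells was at -0.69 in the first and 1.19 in the second. Ccl2 in endothelial-like cells was at 1.88 and -3.16. Opposite signs with 1 or both values under that size were seen for Ccl8 (-0.45 and 1.91), Ccl11 (-0.11 and 2.11) and Ccl19 (0.31 and -0.17) in fibroblast-like cells and Ccl2 (1.03 and -0.46) in root mesenchymal-like cells.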

How the results depend on the processing

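No paired analysis was possible because each group is 1 library. The alternatives were chemokine genes allowed in clustering, resolution 1.0, scaling within each library, doublets kept, other scalings and added values, other minimum sums, and Xist-only or Y-only cells; the macrophage subsets and the removal of the 1 highest cell were added after seeing the data. Over 16 alternatives the log2 ratios in macrophage-like cells ran from 1.02 to 1.63 for Ccl2, 0.59 to 1.28 for Ccl7, 1.45 to 3.35 for Ccl8, -0.56 to 0.85 for Ccl3 and -0.01 to 1.07 for Ccl4. Over 12 alternatives Ccl2 in fibroblast-like cells ran from 0.61 to 2.59, Ccl7 from 1.88 to 3.42, Ccl19 from -0.17 to 0.31 around a main value of 0.00, and Ccl19 in root mesenchymal-like cells from -0.65 to -0.59. Among Xist-only cells the ratio changed sign for Ccl8 (-0.45) and Ccl11 (-0.11) in fibroblast-like cells, Ccl19 in chondrocyte or valve-like cells (-0.69), and Ccl2 in root mesenchymal-like (1.03) and endothelial-like cells (1.88). Without the 1% of cells with the highest value it changed sign for Ccl2 (-0.13) and Ccl7 (-0.69) in chondrocyte or valve-like cells, Ccl2 in root mesenchymal-like cells (1.06) and Ccl2 (2.64) and Ccl7 (2.08) in endothelial-like cells. Without the 1 highest cell these were at 0.79, -0.15, 0.99, 1.82 and 1.94. The Y-only value of Ccl21a in endothelial-like cells was 4.73.

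Counts of ligands at least 1.5-fold apart moved as follows. Each is given beside the share of all genes measured that passed the same size. In macrophage-like cells the 3 higher became 5 among Lyve1 or Folr2 cells (4.70% of genes), and the 0 lower became 2 with no minimum (16.8%). Those 2 were Ccl11 (sums of 1 and 1) and Ccl19 (sums of 7 and 10). In fibroblast-like cells the 4 higher became 2 among Xist-only cells (3.60%), where 4 ligands were measured, and 7 with no minimum (12.8%). In SMC-like cells the 1 higher became 0 at resolution 1.0 (0.429%), 0 among Xist-only or Y-only cells, where fewer cells left no ligand measured, 4 with a minimum of 20 (2.14%) and 5 with no minimum (4.79%). In endothelial-like cells the 2 lower became 0 among Xist-only cells (6.22%), where only 1 ligand was measured. They also became 0 without the highest 1% or the 1 highest cell (share of genes not computed). The 1 higher became 3 with no minimum (14.9%). Where no reason is given, the cause was not tested. With values evened in depth before deposit, a difference in RNA per cell cannot be seen, and sampling noise at low sums can pass 1.5-fold.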
